A study of Homo sapiens with 4 samples.

Results

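The 22RV1 line, human prostate cancer cells grown in culture, was profiled by CUT&Tag in 2 control states: the control of the experiment with PD0332991 (palbociclib), an inhibitor of the kinases CDK4 and CDK6 (the inhibitor control), and the control of the experiment with siRNA against RB (the siRNA control). Sites common to both were found by pairing summits, the highest point that the authors' caller lists in each interval. A pair is a summit of each library that is the other's nearest, at most 250 bp apart, on chromosomes 1 to 22, X or Y. There were 2054 pairs, which is 21.1% of the 9720 summits of the inhibitor control and 19.7% of the 10412 of the siRNA control. Both controls share the cell line and, as described for them, fixed and sonicated chromatin and the library preparation. Sonication is not a step of CUT&Tag as outlined below, and which procedure made the fragments was not tested. The agent each control received is not given in the sources used here, nor is the antibody's target. Each group held 1 library, so differences could not be checked against replicates and no p-value is given. Experiment, control agent and depth cannot be told apart, nor, in bulk libraries, more cells bound at a site and more binding per cell. The treated libraries of the series, 1 with PD0332991 and 1 with siRNA against RB, enter only where they are named.

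In CUT&Tag an antibody directs a transposase to a chromatin protein, and the fragments it releases pile up where that protein sits. Many human promoters lie in CpG islands, stretches rich in CG dinucleotides that stay largely unmethylated and are bound by factors such as the SP family, NRF1, NF-Y at CCAAT boxes, ETS factors and YY1. RB binds E2F factors and restrains entry into S phase, and CDK4 and CDK6 with D-type cyclins relieve that restraint by phosphorylating RB.

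Levels are given as FPM, the treatment fragments at a summit per 1000000 treatment fragments of the library. They were recovered from the authors' fold and p, for totals of 2458766 (inhibitor control) and 3479652 (siRNA control). A single fragment is therefore worth 0.407 and 0.287 FPM. Intervals on levels, ratios and shares cover counting error only. The background in each list came from 34562 and 36250 read ends over the whole genome. The intervals were wide (median 189 and 180 kb) and each lists only its highest point. Together they covered 3.03 Gb in each control, down to a −log10 p of 1.37 and 1.32. A listed summit is therefore not by itself a strong peak. With so small a background, very few input read ends near a summit can put its input many times above the genome-wide level. Of summits with at least 100 FPM, 74.5% of 110 and 92.9% of 28 were paired, against 3.99% and 4.20% of those under 2 FPM. The analysis below keeps the 1191 pairs whose geometric mean is at least 5 FPM. Paired summits lay 40 bp apart in the median, and 111 pairs shared the same base.

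Within the promoter windows that could be read, 6 of the 7 highest paired summits stood on tandem repeats, and the letters of 5 of them are printed here for that reason. Each sequence here is the 250 bases before a RefSeq coding start, read 5′ to 3′ on the gene's strand (GRCh38.p14). ADSS1, an adenylosuccinate synthase of muscle, lies at chr14:104729594-104729843 on the plus strand. BRD3OS, read opposite to BRD3, lies at chr9:134025231-134025480 on the plus strand. SPATC1L, a speriolin-like gene, lies at chr21:46184460-46184709 on the minus strand. GRSF1, a mitochondrial RNA-binding protein gene, lies at chr4:70839891-70840140 on the minus strand. RBFA, a mitochondrial ribosome assembly factor gene, lies at chr18:80034184-80034433 on the plus strand. Capitals mark 1 repeat unit, the first in the best-matching stretch that most closely equals the copy after it.
ADSS1: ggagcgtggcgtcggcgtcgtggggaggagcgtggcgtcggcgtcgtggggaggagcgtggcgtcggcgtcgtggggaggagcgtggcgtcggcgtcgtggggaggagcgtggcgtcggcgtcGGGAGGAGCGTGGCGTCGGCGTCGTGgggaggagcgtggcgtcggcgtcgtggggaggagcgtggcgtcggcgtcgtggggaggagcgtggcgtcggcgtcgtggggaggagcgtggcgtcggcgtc
BRD3OS: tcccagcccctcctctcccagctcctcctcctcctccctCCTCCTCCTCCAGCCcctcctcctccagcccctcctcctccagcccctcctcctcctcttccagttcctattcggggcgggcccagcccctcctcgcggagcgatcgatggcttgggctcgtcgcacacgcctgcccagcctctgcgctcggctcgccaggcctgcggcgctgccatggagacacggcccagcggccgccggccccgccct
SPATC1L: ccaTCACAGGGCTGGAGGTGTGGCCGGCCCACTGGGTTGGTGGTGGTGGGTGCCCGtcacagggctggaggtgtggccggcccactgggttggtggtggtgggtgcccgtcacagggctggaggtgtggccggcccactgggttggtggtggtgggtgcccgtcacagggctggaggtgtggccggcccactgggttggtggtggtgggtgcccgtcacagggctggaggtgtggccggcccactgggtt
GRSF1: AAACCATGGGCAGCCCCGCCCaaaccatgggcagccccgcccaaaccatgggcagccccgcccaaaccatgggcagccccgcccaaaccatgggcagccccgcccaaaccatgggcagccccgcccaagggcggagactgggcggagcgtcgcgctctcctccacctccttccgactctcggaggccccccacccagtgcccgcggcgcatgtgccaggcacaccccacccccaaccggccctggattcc
RBFA: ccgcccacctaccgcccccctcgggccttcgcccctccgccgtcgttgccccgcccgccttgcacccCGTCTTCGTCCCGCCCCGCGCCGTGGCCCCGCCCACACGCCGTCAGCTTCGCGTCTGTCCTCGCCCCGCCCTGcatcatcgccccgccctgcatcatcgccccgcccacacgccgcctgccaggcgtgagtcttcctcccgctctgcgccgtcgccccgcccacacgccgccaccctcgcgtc

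In SPATC1L, 100% of the bases in the best stretch of 120 equalled the base 53 positions further on. The shares were 92.5% at 26 bases for ADSS1, 90.8% at 21 bases for GRSF1, 67.5% at 73 bases for RBFA and 65.0% at 15 bases for BRD3OS. The unit of GRSF1 carries a GC box, GGGCGG on either strand, so that its window holds 8 of them, and the window of RBFA holds 9. The levels at these windows were 475 FPM (inhibitor control) and 336 (siRNA control) at ADSS1, 386 and 144 at BRD3OS, 324 and 134 at SPATC1L, 313 and 116 at GRSF1, and 138 and 87.9 at RBFA. In each of the 5 the inhibitor control had the higher level, as it did in 1011 of all 1191 pairs.

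The next set holds EIF5A, near the median ratio of the controls, HSPD1, the tallest site of the chaperone genes, and CDK4, a fixed gene. ODC1, DLGAP4 and STK17A were taken from the sites farthest below that median, with the higher level in the siRNA control. EIF5A, a translation factor gene, lies at chr17:7307378-7307627 on the plus strand. HSPD1, the mitochondrial chaperonin HSP60, lies at chr2:197499841-197500090 on the minus strand, and CDK4 lies at chr12:57752311-57752560 on the minus strand. ODC1, ornithine decarboxylase and the rate-limiting enzyme of polyamine synthesis, lies at chr2:10448328-10448577 on the minus strand. DLGAP4, a scaffold protein gene, lies at chr20:36461218-36461467 on the plus strand, and STK17A, an apoptosis-related kinase gene, at chr7:43582858-43583107 on the plus strand. Capitals mark GC boxes (GGGCGG), NRF1 sites (CGCNTGCGC), CCAAT boxes (CCAAT) and E-boxes (CACGTG), each searched on both strands.
EIF5A: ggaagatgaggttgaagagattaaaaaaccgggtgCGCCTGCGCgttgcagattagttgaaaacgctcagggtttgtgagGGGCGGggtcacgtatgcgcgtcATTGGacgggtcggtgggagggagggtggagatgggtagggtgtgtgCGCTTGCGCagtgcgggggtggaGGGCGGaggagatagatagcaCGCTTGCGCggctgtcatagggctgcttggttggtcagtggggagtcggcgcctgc
HSPD1: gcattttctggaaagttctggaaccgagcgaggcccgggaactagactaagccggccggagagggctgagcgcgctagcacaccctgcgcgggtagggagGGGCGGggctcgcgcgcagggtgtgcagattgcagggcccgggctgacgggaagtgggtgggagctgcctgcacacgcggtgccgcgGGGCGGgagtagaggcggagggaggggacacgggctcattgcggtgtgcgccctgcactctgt
CDK4: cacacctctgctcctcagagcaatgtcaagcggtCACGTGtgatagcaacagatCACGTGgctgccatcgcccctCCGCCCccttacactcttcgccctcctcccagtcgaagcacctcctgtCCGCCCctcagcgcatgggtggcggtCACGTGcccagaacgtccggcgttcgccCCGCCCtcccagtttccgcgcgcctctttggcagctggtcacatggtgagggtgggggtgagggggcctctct
ODC1: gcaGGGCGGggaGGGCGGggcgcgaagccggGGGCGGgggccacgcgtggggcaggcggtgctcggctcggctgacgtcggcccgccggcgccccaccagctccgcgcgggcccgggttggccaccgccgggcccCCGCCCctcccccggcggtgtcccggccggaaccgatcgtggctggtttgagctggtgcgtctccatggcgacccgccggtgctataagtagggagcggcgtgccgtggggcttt
DLGAP4: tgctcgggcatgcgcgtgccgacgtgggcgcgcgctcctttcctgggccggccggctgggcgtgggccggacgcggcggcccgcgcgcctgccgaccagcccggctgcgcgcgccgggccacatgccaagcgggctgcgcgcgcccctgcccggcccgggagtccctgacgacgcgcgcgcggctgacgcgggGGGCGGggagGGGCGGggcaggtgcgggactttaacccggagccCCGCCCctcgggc
STK17A: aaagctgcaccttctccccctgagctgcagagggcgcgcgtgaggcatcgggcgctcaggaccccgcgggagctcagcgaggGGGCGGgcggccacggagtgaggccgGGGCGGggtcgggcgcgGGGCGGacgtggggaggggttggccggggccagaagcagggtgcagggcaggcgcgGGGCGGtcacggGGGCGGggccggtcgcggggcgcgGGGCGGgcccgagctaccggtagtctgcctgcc

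The EIF5A window holds 3 NRF1 sites, 2 GC boxes and 1 CCAAT box, and the CDK4 window 3 GC boxes and 3 E-boxes. HSPD1 has 2 GC boxes, ODC1 has 4, DLGAP4 has 3 and STK17A has 6. A match is a run of letters and not a measured binding site. EIF5A had 80.1 FPM (inhibitor control) and 53.7 (siRNA control), HSPD1 72.0 and 42.8, and CDK4 42.3 and 30.2. At ODC1 the order was the other way, with 12.6 and 26.7 FPM, as at DLGAP4 with 18.3 and 34.5 and at STK17A with 4.47 and 9.77. The STK17A summit of the inhibitor control, at position 43582843, lies just before the printed bases.

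Over all promoters, tandem repetition went with the height of the summit. A window counted as repeated when at least 60% of the bases in its best stretch of 120 equalled the base a fixed 6 to 100 positions on. Of 22199 windows of 300 bases around the starts of 15843 coding genes, 1.87% were repeated. Among windows with a paired summit of at least 100 FPM it was 6 of 8 (75%, exact 95% interval 34.9 to 96.8), at 6 of 7 distinct summits. The share was 50% when at least 70% of bases had to be equal and 37.5% at 80%, both inside that interval. Besides the 5 genes above these were CASP9, the initiator caspase of the apoptosome, with a shift of 62 bases. The shares were 10.0% of 10 windows at 50 to 100 FPM, 9.78% of 92 at 20 to 50, 3.83% of 183 at 10 to 20 and 2.28% of 307 at 5 to 10. Some lower summits also stood on close repeats, as at FBXL12, an F-box gene (95% of bases equal at 61 bases), and at UBE3C, a ubiquitin ligase gene (98.3% at 18 bases). Repeated windows made up 8 of 35 windows whose summit was higher in the inhibitor control beyond counting error, by the rule given below, and 0 of 44 of those lower in it, relative to the common shift (exact 95% interval up to 8.04%). Against the median of the summit's level band it was 7 of 30 and 3 of 42, ADSS1 and RBFA then being lower, so the 0 holds for the overall median only. How many copies of a repeat the 22RV1 genome holds, and whether reads in repeats were placed correctly, was not tested. Input above the genome-wide level was recorded at 3 of the 29 repeated summits in each control, against 28 and 23 of the other 476.

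**Figure D1:**
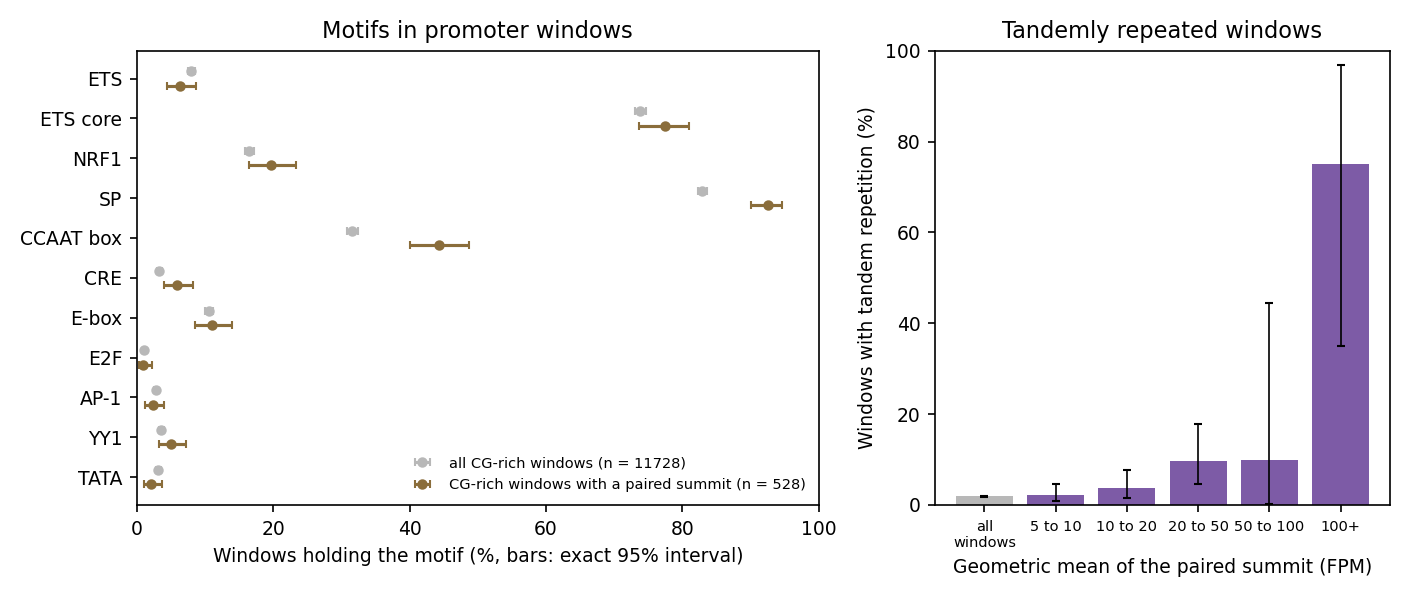
Left, percent of promoter windows with at least 20 CG dinucleotides that hold each motif, for all such windows (grey) and those with a paired summit (brown), with exact 95% intervals of counting error. Right, percent of windows with tandem repetition, for all windows and by the level of the paired summit in FPM. The bar at 100 FPM and over stands for 6 of 8 windows, and the GC box (SP) is the motif most often held.

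Most paired summits marked the 5′ ends of genes. Of the 1191 pairs, 805 (67.6%, 64.8 to 70.2) lay within 1000 bp of an end of a protein-coding gene, windows that take up 2.30% of the bases. Where strand was listed, 633 pairs were near 5′ ends only, 16 near 3′ ends only and 24 near both. Within 1000 bp of a listed coding start, 740 pairs had a median position of -129 bp (quartiles -227.5 and -34, negative being upstream), and 594 of them (80.3%) were upstream. Some gene ends named below were not at a listed start of their own gene. At CCND1, WDR27, DBNDD1, FBXO33, SCAF4 and CBX8 the nearest listed coding start was another gene's. Of the 805 gene-end pairs, 193 (24.0%) lay at the ends of at least 2 coding genes. Examples are HSPD1 with HSPE1, the chaperonin and its co-chaperonin, and CDC45, a replicative helicase subunit, with UFD1. Of summits of at least 5 FPM without a partner, 55.4% of 1023 and 60.9% of 667 were at gene ends.

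**Figure D2:**
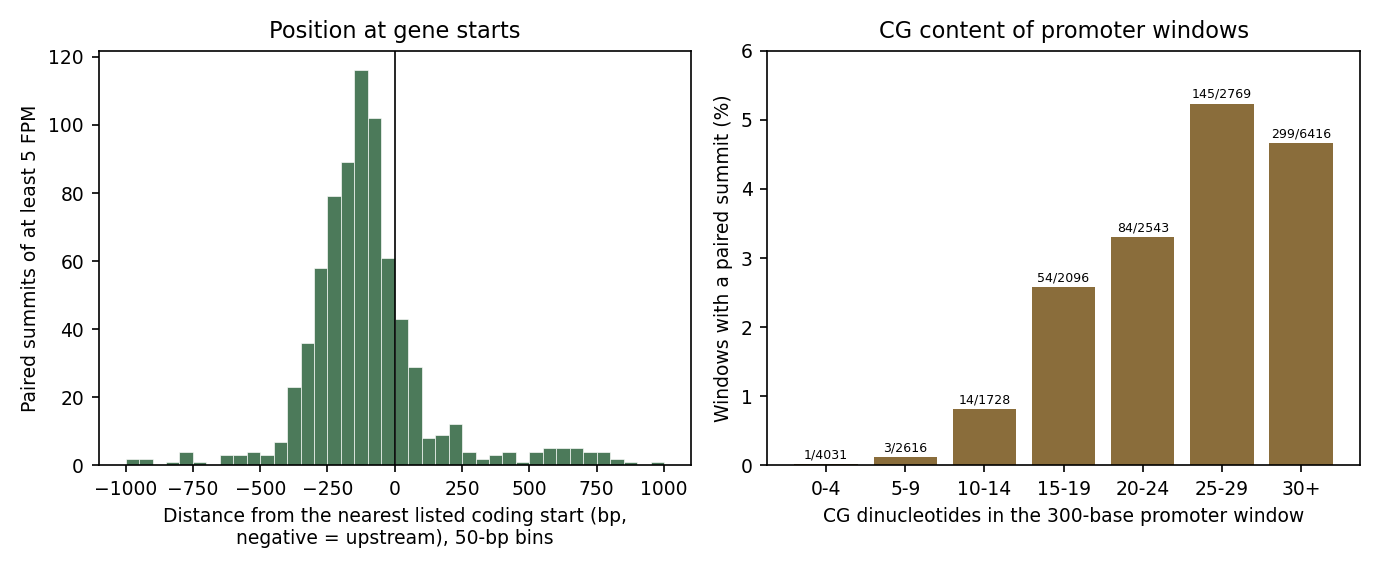
Left, paired summits of at least 5 FPM by distance from the nearest listed coding start, in bins of 50 bp, negative values upstream. Right, percent of 300-base promoter windows with a paired summit by their number of CG dinucleotides, with the counts above each bar. The summits gather just upstream of the start, and windows with 0 to 4 CG dinucleotides hold 1 of 4031.

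Promoter windows with a summit were mostly CG-rich, 528 of 600 having at least 20 CG dinucleotides. A paired summit of at least 5 FPM lay in 600 of the 22199 windows (2.70%), at 505 distinct summits. Windows with a summit held 29 CG dinucleotides in the median (quartiles 24 and 35.25), against 21 over all windows. The share of windows with a summit was 0.0248% at 0 to 4 CG dinucleotides, 0.810% at 10 to 14, 2.58% at 15 to 19, 5.24% at 25 to 29 and 4.66% at 30 and more. Some windows overlap, since a gene can have several starts.

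The GC box bound by SP factors stood in 90.8% of windows with a summit (88.2 to 93.0) and in 56.3% of all. Because that motif follows CG content, motifs were also counted among windows with at least 20 CG dinucleotides, 528 with a summit and 11728 in all. There the GC box was in 92.6% (90.0 to 94.7) against 83.0%, and the CCAAT box, the site of NF-Y, in 44.3% (40.0 to 48.7) against 31.6%. The cAMP response element TGACGTCA, the CREB site, was in 5.87% (4.02 to 8.23) against 3.27%. The ETS site CCGGAAGT was in 6.25% (4.34 to 8.67) against 7.99%, a share whose interval holds the value of all such windows, and its core GGAAG in 77.5% (73.7 to 81.0) against 73.8%. For the E2F site TTTCGCGC the shares were 0.947% and 1.09%, for YY1 (AAGATGGCG) 4.92% and 3.54%, for NRF1 19.7% and 16.4%, and for the E-box 11.0% and 10.5%. TATAAA and the AP-1 site TGANTCA were rarer among all windows with a summit than among all promoters, at 2.83% against 9.47% and 2.33% against 6.15%. With at least 20 CG dinucleotides they were at 2.08% against 3.15% and 2.27% against 2.83%. All motifs were searched on both strands and some can overlap. No match says only that those letters are not in the window.

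The tallest reproducible summit lay at CIMAP1D, a ciliary microtubule-associated protein gene near the end of the short arm of chromosome 19 (position 491914 in both lists, hg38). It reached 2224 FPM (inhibitor control) and 1077 (siRNA control), from 5469 and 3747 fragments. Next among gene ends was WDR27 on chromosome 6, a WD-repeat gene, with 545 and 242 FPM. The mucin gene MUC8 on chromosome 12 had 449 and 119. At TMEM87B, a Golgi protein gene on chromosome 2, the levels were closest among the 12 tallest gene ends, 234 and 197. CASP9 had 205 and 82.8 FPM, 62 bp upstream of its start. The end shared by MAZ, a zinc finger factor that binds GC-rich DNA, and the kinesin gene KIF22 had 178 and 94.3. The authors' folds over background there went the other way, 3.58 (inhibitor control) and 4.41 (siRNA control), alone among the 12 tallest gene ends. Input there was 409 times the genome-wide level in the inhibitor control and at that level in the siRNA control. USP22, the deubiquitinase of the SAGA coactivator, had 165 and 114. The end shared by the hyaluronidase genes HYAL3 and HYAL1 and by NAA80, the actin N-terminal acetyltransferase, had 156 and 90.5. All 12, which include BRD3OS, SPATC1L, LOC124905351 and the end of TMEM276-ZFTRAF1 and KIFC2, were higher in FPM in the inhibitor control. So were 1011 of all 1191 pairs. Away from gene ends the tallest pairs lay among the rRNA gene copies on chromosome 21, in HCN2, a pacemaker channel gene (589 and 300.03 FPM), and at the inner start of ADSS1. Among the 53 pairs of at least 100 FPM, 14 and 12 had input above the genome-wide level at the summit (26.4% and 22.6%), among them the end of MAZ and KIF22 in the inhibitor control, against 100 and 110 of all 1191 (8.40% and 9.24%). Its part in their height was not tested.

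**Figure D3:**
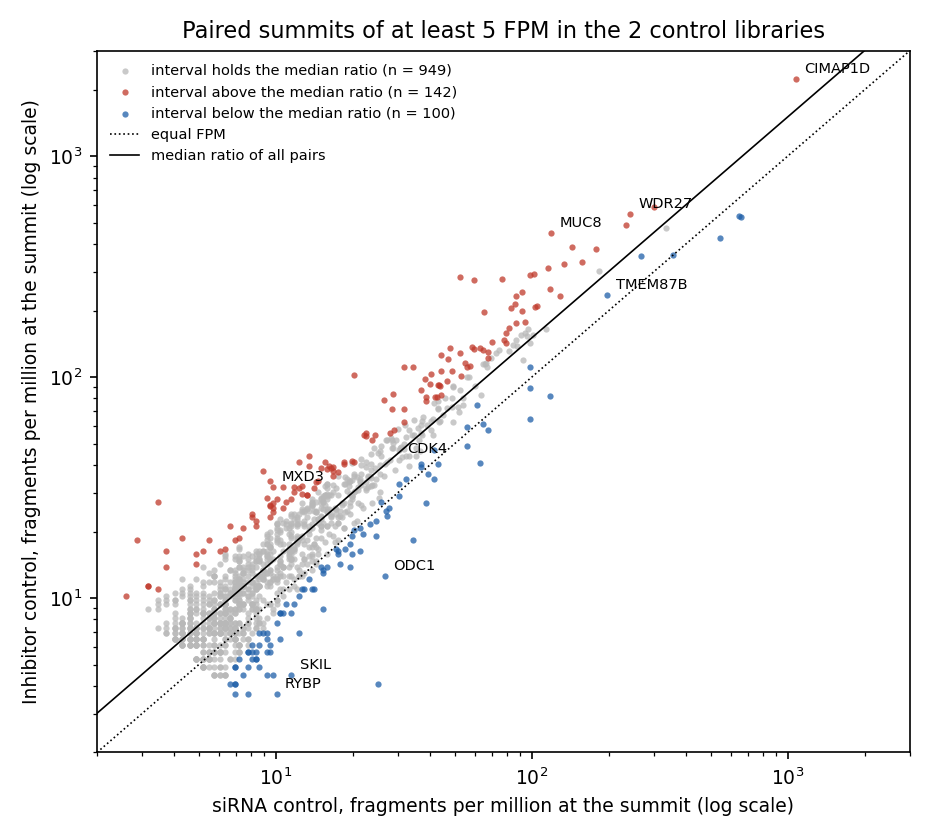
Level of each of the 1191 paired summits in the siRNA control (x) and the inhibitor control (y), in FPM on log scales. Red and blue points have a 95% interval of the ratio above (142) or below (100) the median ratio, drawn as a solid line, and the dotted line marks equal levels. Most points lie above the dotted line, and CIMAP1D is the highest in both.

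Housekeeping and stress genes were among the reproducible sites, read against a background in which 1007 of 20037 coding genes (5.03%) had a paired summit of at least 5 FPM at an end, and 7.78% one of any height. Of 18 chaperone and heat shock genes, 7 had one. HSPA8, the constitutive cytosolic HSP70, had 30.1 FPM (inhibitor control) and 16.7 (siRNA control), with input 78.1 times the genome-wide level in the inhibitor control alone. The cytosolic HSP90 genes HSP90AA1 and HSP90AB1 had 11.8 and 9.2, and 9.76 and 4.6. HSPA5, the HSP70 of the endoplasmic reticulum, had 11.0 and 7.76. HSPA1B had 15.9 and 14.7, a value that reads from its near-identical copy HSPA1A could alter. None of these lay beyond counting error, beside 20.3% of all pairs, and the 6 summits are too few to tell from that share. The median log2 ratio of the 6 summits was 0.63, beside 0.59 over all pairs.

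Signal-responsive genes followed. Of 27 immediate early genes, which respond to stimuli without new protein synthesis, 8 were paired, among them EGR1 (28.5 and 14.9 FPM), JUN (15.5 and 9.2), DUSP1 (11.8 and 6.90), KLF6 (9.76 and 6.90) and KLF4 (8.54 and 6.32). Their median log2 ratio was 0.47, and 2 of the 8 lay below the median ratio of all pairs beyond counting error, as did 8.4% of all pairs. TRIB1, a pseudokinase gene, had 39.0 and 36.8 FPM, and FOSL2, an AP-1 subunit, 8.54 and 10.6. Neither differed from equal FPM beyond counting error, and against its level band FOSL2 was not called. Of 23 p53 targets 7 were paired, with a median of 0.46. None lay beyond counting error, beside 20.3% of all pairs, and 7 are too few to tell from that share. FDXR, a mitochondrial reductase gene, had 14.2 and 10.3 FPM, PPM1D, a phosphatase that acts back on p53, 13.8 and 10.6, and DDB2, of nucleotide excision repair, 13.8 and 10.1. These and all other gene lists here were chosen with earlier results of these libraries known, and their shares are no independent evidence.

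Of 25 genes for ETS family factors, the proteins that bind CCGGAAGT, 5 were paired. These were ELF2 (33.8 and 21.3 FPM), ELK4 (20.7 and 13.8), ELK1 (14.6 and 8.62), ELF3 (6.51 and 4.89) and GABPA at the end it shares with ATP5PF (4.47 and 6.32). None of the 5 lay beyond counting error, beside 20.3% of all pairs, and they are too few to tell from that share. Their median log2 ratio was 0.59. Among 31 genes for cyclins, CDKs, RB and E2F proteins, 2 were paired (6.45%, near the 5.03% of all coding genes). These were CDK4 and CCND1, the gene for cyclin D1 (11.8 and 5.46 FPM). The CCND1 summit lay at an end of the gene but 3235 bp from the nearest listed coding start, that of LOC124902704. It is therefore not placed at a CCND1 promoter. No list of either control had a summit at an end of RB1, ETS1, E2F1 or KLK3, the gene for prostate-specific antigen. A summit there that is lower than another in the same interval would not be listed. Of 33 replication genes 2 were paired (6.06%, also near the share of all coding genes). These were CDC45 (13.0 and 9.48) and ORC6, of the origin recognition complex, whose end is shared with VPS35 (20.7 and 7.47).

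Gene expression machinery was present too. The 4 paired of 32 spliceosome genes included SRSF2 (25.2 and 17.0 FPM) and SF3B6, at an end shared with FAM228B and TP53I3 (55.7 and 37.1). Their median ratio was 0.28, and HNRNPK, at an end shared with RMI1, lay below the common shift (4.47 and 7.47). Translation factors had 4 of 21, led by EIF5A and by EIF2S1, the alpha subunit of eIF2, at an end shared with ATP6V1D (22.0 and 11.5), with a median of 0.75. Polycomb and chromatin genes had 4 of 31, among them CBX8, a chromodomain subunit of PRC1 (50.03 and 31.6), BRD2 (15.5 and 13.5) and KMT2A, a histone H3 methyltransferase (14.2 and 8.05), with a median of 0.43. DNA repair genes had 6 of 27, among them ERCC1 (13.0 and 9.2) and BARD1 (13.8 and 8.05), with a median of 0.64. In SMAD signalling 4 of 22 were paired, among them the inhibitory SMAD6 (35.8 and 17.5) and its partner ubiquitin ligase SMURF1 (26.8 and 12.6), with a median of 0.80. In the network of MYC, MAX and their MXD antagonists it was 3 of 13: MXD1 (24.8 and 15.8), MXD3 and MAX (7.73 and 4.31), with a median of 0.84. Ubiquitin and proteasome genes had 0 of 32.

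Of 20 genes of androgen signalling and prostate lineage, 0 were paired, and only 1 had a summit of any height at an end among those of the inhibitor control and 4 among those of the siRNA control. Of 19 marker genes of other cell types 0 were paired, with 1 and 0 of any height. Over all 20037 coding genes 3371 and 3465 had a summit of any height, and 5.03% were paired, so 0 of 20 is near the background. The lists of summits thus hold little from which the labelled prostate origin could be checked, and no such check was possible.

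Between the controls most pairs were higher in the inhibitor control, and the excess grew with height. The median log2 ratio, inhibitor control over siRNA control, was 0.59 (0.57 to 0.62), a 1.505-fold difference, and 1011 of 1191 pairs were above equal FPM. That shift is common to most sites and depends on the recovered totals, so single sites were read against it. At 5 to 10 FPM the median was 0.43 (533 pairs), at 10 to 20 it was 0.63 (331), at 20 to 50 it was 0.70 (202), at 50 to 100 it was 0.84 (72) and at 100 and over 0.99 (53). Gene ends went from 0.44 to 1.08 over the same bands. A call was made when the exact 95% interval of a ratio lay wholly on 1 side of the median of all pairs. There were 142 pairs above it (11.9%) and 100 below (8.4%), so that 58.7% of calls were above. Against the median of the pair's own band, an alternative chosen after seeing the data, there were 99 above (8.31%) and 111 below (9.32%), 47.1% above, and 179 calls were made by both rules. Which control had more sites above the shift therefore depended on this choice.

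**Figure D4:**
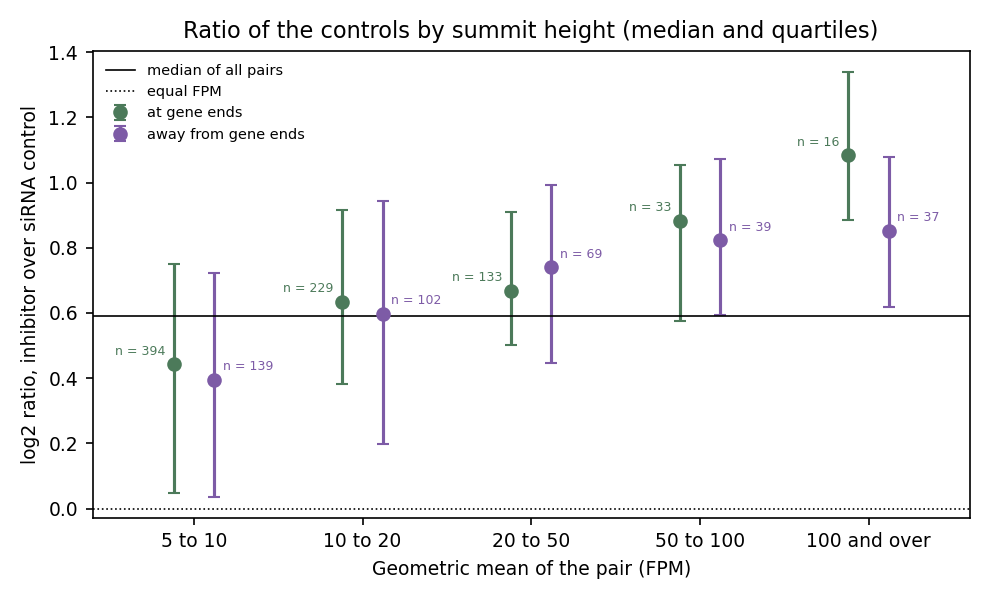
Median log2 ratio of paired summits, inhibitor control over siRNA control, by level of the pair in FPM, at gene ends (green) and away from them (purple). Bars span the quartiles, n is the number of pairs, and the solid line is the median of all pairs, 0.59. The ratio rises from left to right in both sets.

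Sites higher in the inhibitor control included repeats, regulators and a cell death gene. LOC124905351, listed as a coding gene at the very start of chromosome 3, had 283 FPM against 52.3 (log2 ratio 2.43, 2.20 to 2.68). It lies within 0.000377 Mb of the first listed base. Input there was 818 times the genome-wide level in the inhibitor control and 89.2 times in the siRNA control. The authors' folds over background there were 3.59 and 2.40, closer than the FPM. MUC8 had a ratio of 1.92 (1.75 to 2.08), with input above the genome-wide level in the siRNA control alone, as at FBXO33 and MXD3. FBXO33, an F-box ubiquitin ligase subunit, had 33.8 and 9.48 FPM (1.83, 1.23 to 2.46). MXD3, a MAX partner that represses MYC targets, had 31.7 and 9.77 (1.70, 1.10 to 2.32). TMEM141 had 98.02 and 38.2 (1.36, 1.05 to 1.68). The tandemly repeated promoters of BRD3OS (1.42), CASP9 (1.31) and SPATC1L (1.28) were in the same group, as were WDR27 (1.17) and LOC124900172 (1.60). Input was above the genome-wide level in the inhibitor control alone at TMEM141 and at SPATC1L. At SPATC1L it was 409 times that level, and the authors' folds over background were 6.09 and 5.83, far closer than the FPM. Such multiples can rest on very few input read ends. The part of input in these ratios was not tested. Each of the 10 stayed above the median of its own band. Of the gene lists, ORC6 with VPS35 (1.47, 0.76 to 2.21) and XRCC1 with PINLYP (11.4 and 3.16 FPM, 1.85, 0.80 to 3.003), of DNA single-strand break repair, were above by both rules. XRCC2, of homologous recombination, had 16.7 and 6.32 FPM (1.40, 0.62 to 2.22) and was above the median of all pairs only.

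Of sites below the common shift, 10 gene ends lay farthest from it. RYBP, a subunit of variant PRC1 complexes, had 3.66 and 10.1 FPM, in the same order, with a log2 ratio of -1.46 (-2.70 to -0.37). SKIL, the SMAD corepressor SnoN, had 4.47 and 11.5 (-1.36, -2.47 to -0.37), the only 1 of 4 paired SMAD signalling genes below the shift, as RYBP was of 4 chromatin genes. ODC1, whose sequence is printed above, had a ratio of -1.08 (-1.72 to -0.48). SIAH2, a RING ubiquitin ligase of the hypoxia response, had 4.47 and 9.2 (-1.04, -2.18 to -0.01). SCAF4, which acts at the C-terminal domain of RNA polymerase II, had 5.69 and 9.48 (-0.74, -1.75 to 0.21). Among taller sites, the end shared by NCAPH2, a condensin II subunit, and LMF2 had 82.2 and 118 FPM (-0.52, -0.77 to -0.27). F10-AS2 had 64.7 and 97.998 (-0.60, -0.88 to -0.32), and the end of CCDC92, ZNF664 and ZNF664-RFLNA 26.8 and 38.5 (-0.52, -0.97 to -0.08). STK17A had a ratio of -1.13 (-2.26 to -0.11). DBNDD1 had nearly equal levels, 61.4 and 64.4 FPM, and lay below the shift but not below equal FPM (-0.07, -0.38 to 0.24). All 10 lay below the median of their band as well. Input was above the genome-wide level in 1 library each at RYBP, SIAH2 and SCAF4, and its part was not tested. The interval of SCAF4 also held 0, so 8 of the 10 were higher in the siRNA control in FPM beyond counting error.

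At other gene ends the controls differed by about the common shift. The 8 gene ends with the narrowest intervals within 0.1 of the median included USP22 (0.54, 0.33 to 0.74), EIF5A (0.58, 0.28 to 0.87), and the end of TAF6L, another SAGA subunit, and TMEM223 (72.4 and 46.8 FPM). RBFA shares its end with TXNL4A, of the U5 snRNP (0.65, 0.42 to 0.88). Against the median of the tallest band, USP22 and RBFA lay below it.

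**Figure D5:**
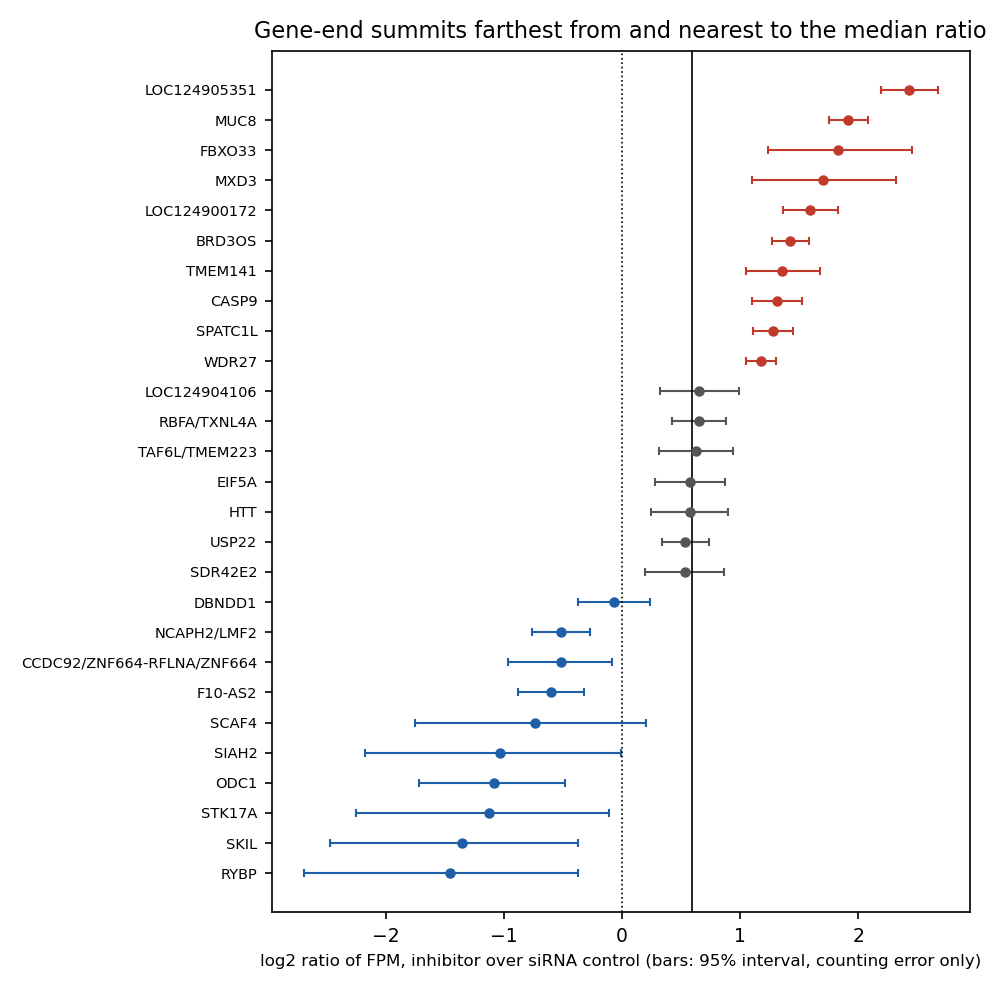
log2 ratio of FPM, inhibitor control over siRNA control, for the 10 gene-end summits farthest above the median ratio (red), the 10 farthest below (blue) and 7 of the 8 nearest to it (grey), with exact 95% intervals of counting error. The solid line is the median of all pairs and the dotted line equal levels. The red and blue intervals lie on either side of the solid line by the rule that chose them.

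Away from gene ends a larger share of pairs lay beyond counting error from the common shift. Of 386 pairs there, 119 were beyond counting error (77 above, 42 below, 30.8%), against 123 of 805 at gene ends (65 and 58, 15.3%). Against the median of the level band it was 54 above and 57 below away from ends, and 45 and 54 at gene ends, so that the excess of sites above did not hold there. By band the shares were 13.7% against 8.88% at 5 to 10 FPM, 25.5% against 12.7% at 10 to 20 and 40.6% against 19.5% at 20 to 50. Above that they were 51.3% against 60.6% at 50 to 100 and 70.3% against 81.3% at 100 and over, an order that depended on the centre, since against the level band they were 43.6% against 36.4% and 67.6% against 62.5%. The spread of the ratio was wider away from ends in each band below 100 FPM, for example an SD of 0.73 against 0.52 at 5 to 10 FPM. The 103 pairs inside coding genes had the highest share, 42.7% (31 above and 13 below), and a median of 0.74. Inside PKD1, the polycystin-1 gene on chromosome 16, the levels were 275 and 59.5 FPM (2.21, 1.98 to 2.44). Inside CLCN5, an endosomal chloride exchanger gene, they were 27.2 and 3.45 (2.98, 2.08 to 4.005), and inside PER2, of the circadian clock, 16.3 and 1.72 (3.24, 1.99 to 4.77), the last from 6 fragments in the siRNA control. In the other direction a site by SMIM2 on chromosome 13 had 4.07 and 25.003 FPM (-2.62, -3.73 to -1.67), and the inner start of DLGAP4 had a ratio of -0.91 (-1.44 to -0.41). Input was 14.9 times the genome-wide level in the siRNA control alone at PKD1 and PER2. At DLGAP4 it was 15.6 times that level in the inhibitor control alone, and its part was not tested.

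Chromosome ends and ribosomal repeats stood on opposite sides. Within 2 Mb of the first or last listed base of a chromosome lay 117 pairs, with a median ratio of 0.80 (0.72 to 0.94) against 0.58 for the 1074 farther in. Of these 117, 41 were called above and 13 below, 46.2%, against 101 and 87 farther in, 17.5%. Against the level band it was 31 above and 20 below, and 68 and 91 farther in. They were also taller, with a median geometric mean of 27.6 against 10.4 FPM. Within bands of level the medians were 0.57 against 0.43 at 5 to 10 FPM, 0.81 against 0.60 at 10 to 20, 0.73 against 0.70 at 20 to 50, 0.81 against 0.85 at 50 to 100 and 1.09 against 0.84 at 100 and over. The excess at chromosome ends was thus not present in every band. In the ribosomal RNA genes of chromosome 21, the templates of 45S pre-rRNA, 5 pairs had a median of -0.28, and 4 lay below the median of all pairs and 5 below that of their band. The site at RNA5-8SN2 had 531 FPM (inhibitor control) and 659 (siRNA control), that at RNA5-8SN3 534 and 647, and that at RNA5-8SN1 428 and 545. At RNA45SN1 the levels were 355 and 358. Input was unequal and, at each of these named sites, far above the genome-wide level in at least 1 library. At RNA5-8SN2 it was 102 times that level in the inhibitor control and at that level in the siRNA control. At RNA5-8SN3 it was 70.3 and 14.9 times, and at RNA5-8SN1 62.5 and 44.7 times. At RNA45SN1 the order of input was the other way, at that level in the inhibitor control and 44.7 times it in the siRNA control. Its part in these values was not tested. These copies are nearly identical, so reads can be shared between them and the sites are not independent. A site near MIR3648-2 and MIR10396A had 40.7 and 62.9 FPM. Input there was at the genome-wide level in the inhibitor control and 149 times it in the siRNA control. The authors' folds there were 2.40 and 2.43, and the part of input was not tested. Chromosome 19 had the most pairs per length, 11.95 per 10 Mb, with a median ratio of 0.83 and a median geometric mean of 27.0 FPM.

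Few summits without a partner could be read as higher in 1 control. The inhibitor control had 1023 unpaired summits of at least 5 FPM. For 460 of them the interval of the siRNA control over the same position had a summit as high or higher, which would hide a partner, and 92 lay in a gap. In the remaining 471 the other summit was lower, and for 35 lower beyond counting error relative to the common shift, 13 of these at gene ends. There PPP2R5C, a regulatory subunit of phosphatase PP2A, had 144 FPM against at most 46.3, with the other summit 316 bp away. TTLL12 had 190 against at most 79.3, 273 bp away. FIZ1 with ZNF524 had 69.95 against at most 26.4. SPTSSB, of serine palmitoyltransferase, had 9.35 against at most 1.72, and FZD4, a Wnt receptor gene, 11.8 against at most 2.59. E2F8, of the repressive E2F proteins, had 6.51 FPM, with a limit of 1.15 in the siRNA control. Of 667 unpaired summits of the siRNA control 476 were hidden, 130 lay in a gap and 61 had a lower summit, 30 beyond counting error and 15 of them at gene ends. ZNF592 had 28.2 FPM against at most 15.5 and EGLN1, the oxygen sensor PHD2, 9.2 against at most 4.88. The kinase genes CDC42BPA and CDC42BPB had 6.61 against at most 2.03 and 13.2 against at most 7.32. CAPZB, an actin capping subunit, had 9.2 against at most 4.07 and KDM8 7.18 against at most 2.85. Of these 6 sites of the siRNA control, the interval of EGLN1 alone held equal FPM. A call here needs the other interval to be low throughout, so these counts do not compare the controls.

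The sites that separated the controls were looked up in the treated libraries of the same experiments, which share no sample with this comparison. Of the 1191 pairs, 439 had a summit within 250 bp in both. Over these the control ratio and the ratio of the library with PD0332991 to that with RB siRNA had a Pearson correlation of 0.07 and a Spearman correlation of 0.12, across sites of the same libraries, which are not independent. Of 76 sites above the median between the controls, 50 were above the median of the treated ratio, and of 40 below, 28 were below it. Of the 323 sites not called between the controls, 156 were above it and 166 below. The medians, each relative to the median of all 439, were 0.61 between the controls and 0.14 between the treated libraries for the first group and -0.88 and -0.20 for the second. MUC8 had 457 FPM with PD0332991 and 260 after RB siRNA, and MXD3 15.2 and 22.7, the reverse of its order in the controls. At RYBP the values were 6.81 and 6.19.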

How the data were processed

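CUT&Tag libraries of 22RV1 cells were processed with bcl2fastq 2.17 and Trimmomatic 0.33, then Bowtie2 on hg38 and MACS2 2.1.0. These names come per the submitters' processing notes, without settings or, for Bowtie2, more than version 2. Each deposited list holds 1 library. Per summit the authors deposited a fold (treatment divided by background), a −log10 p, a −log10 q and a score. In these values the score equals 10 times the −log10 p without its decimals. Intervals and summits were read on chromosomes 1 to 22, X and Y, a summit being the interval's start plus its offset.

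Fold and p were solved for the treatment fragments at each summit, with MACS2's pseudocount of 1 and its Poisson tail. All solved numbers (100%) were whole within 0.05, but the search preferred whole solutions, so this share is no independent check. Library totals assume a large window of 10000 bp, a fragment length between 100 and 300 bp and a genome of 2.7 Gb. The solution and the ratio calls were tested on simulated data. Recovered fragments are a measure chosen after these lists were first seen.

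Samples were grouped by the labels' treatment. Ratios carry exact conditional 95% intervals, shares exact binomial (Clopper-Pearson) ones, and medians order-statistic ones. Gene ends and promoter windows (250 bases before to 50 after a start) come from RefSeq on GRCh38.p14, where 15843 of 20037 coding genes matched a window. Chromosome 8 windows were not used here. Input counts as above background at over 1.5 times the genome-wide level. Members, gene lists and tests were chosen with earlier results of these data known. Named sites are the 12 tallest gene ends, 10 per direction farthest from the median by the nearer bound, the 8 nearest it, the 6 tallest and 3 per direction away from ends, up to 6 unpaired per control, up to 4 per list, and 10 fixed genes. GRSF1 and, of the lists, members beyond the first 4 were named after their values were seen. The result at 1 of the named sites is not reported here. Alternatives covered distance, thresholds, contigs, chromosome ends, level minima, gene windows and centring. Python 3.11.15, numpy 2.4.6, pandas 2.3.3, scipy 1.17.1 and matplotlib 3.10.9 were used.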

Additional observations from a re-analysis of the deposited data

Results flagged for a closer look

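Signal was also recorded on sequences that the comparisons above left out, the unplaced, random and alternate contigs of hg38. The inhibitor control had 341 summits on them and the siRNA control 347, with 57 pairs, of which 44 had at least 5 FPM. The median log2 ratio of these pairs was 0.57, beside 0.59 on chromosomes 1 to 22, X and Y. The highest had 421 FPM (inhibitor control) and 552 (siRNA control), the direction recorded at the ribosomal RNA genes of chromosome 21. Such contigs hold copies of repeats found elsewhere in the genome, and how reads were placed among copies was not tested. No group had more than 1 library, so no library could be compared with others of its group.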

How the results depend on the processing

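No paired analysis was possible because each group holds 1 library, and no replicate could be left out. With a −log10 p of at least 5 in both lists, 153 pairs of any height remained and 153 of at least 5 FPM, with 45.8% at gene ends, a median log2 ratio of 0.80 and 40 above and 32 below it. With the authors' fold at 1.5 or more there were 376 pairs of any height and 376 of at least 5 FPM, 57.7% at gene ends, a median of 0.71 and 66 above and 60 below. The median was 0.50 from 2 FPM up, 0.72 from 10 and 0.78 from 20. From 10 FPM 62.5% lay at gene ends and 89 pairs were above the median, and from 20 FPM 55.7% with 59 above and 55 below. Gene ends of 500 bp took 60.5%, of 2500 bp 73.7%, and 5′ ends alone 57.8%. Against equal FPM, 495 pairs were above and 15 below, and with 99% intervals 50 were below. In the other 39 of 65 alternatives of the main values, counts stayed within 1.5 times and shares and medians within their 95% intervals, though level bands gave 99 above in place of 142 and 99% intervals 100. Stricter repetition took 75% of the tallest windows to 50% and 37.5%.

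Scaling to all paired fragments moves each ratio, its interval and the median by the same amount. It therefore could not change a direction or call at the 82 named summits. Against their level band 73 kept their call. CIMAP1D, FOSL2, XRCC2 and the end of TMEM276-ZFTRAF1 and KIFC2 were no longer called, and ADSS1, USP22 and RBFA with TXNL4A were called lower. Relative to that median MAZ with KIF22 changed sign (-0.075), as did the site inside HCN2 (-0.021). The authors' fold and p fix the totals only under the assumed genome size and window. Depth limits the lowest pairs: at RYBP 9 and 35 fragments gave an interval from -2.70 to -0.37.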

Other observations

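Noncoding genes shared many of the coding ends. Of the 1191 pairs, 274 lay within 1000 bp of an end of a long noncoding RNA gene, 199 of them also at a coding gene end. A further 29 were at transcribed pseudogenes, 17 at microRNA genes, 7 at small nuclear RNA genes, 6 at ribosomal RNA genes and 3 at transfer RNA genes, and a pair can count in several classes. The 95 pairs at noncoding ends or pseudogenes but not at a coding gene had a median log2 ratio of 0.60, with 16 called above the median of all pairs and 9 below.

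Chromosomes differed in density. Chromosome 19 had 70 pairs and chromosome 17 had 62, 11.95 and 7.45 per 10 Mb, against 1.49 on chromosome 13, 1.54 on X and 0.874 on Y. Per 100 coding genes, chromosome 19 had 2.62 pairs at gene ends, below the 4.56 of chromosome 1, 6.67 of chromosome 18 and 6.28 of chromosome 21. These are counts of these libraries, and the copy number of each chromosome in 22RV1 was not used here.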
